A study of Mus musculus with 12 samples.

Results

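Liver X receptors are nuclear receptors that sense cholesterol, and their messenger RNAs were followed here with those of 5 of their target genes in cells sorted as bone marrow endothelium from mice with cardiovascular disease. The 7 genes are the receptors *Nr1h3* (LXRα) and *Nr1h2* (LXRβ), the cholesterol exporters *Abca1* and *Abcg1*, the ubiquitin ligase gene *Mylip*, the phospholipid acyltransferase gene *Lpcat3* and the transcription factor gene *Srebf1*. They were taken by symbol, each matched 1 Ensembl identifier, and together they make up 7 of the 55421 genes in the table. All 7 passed the filter on low counts, with between 68 and 7314 counts per gene and library. The genes were chosen by their behaviour in an earlier look at the same libraries, so their levels and differences are given as a description, with standard errors, and no test of them is taken as support. *Abca1* was the gene that stood out most evenly: its level in atherosclerosis was 29.0 ± 2.89 CPM (counts scaled to the same total in each library; SD, n = 3 mice) and 8.52 ± 1.21 in controls, whereas the libraries of hypertension and MI lay between 6.14 and 10.7 CPM.

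The study asked how hypertension, atherosclerosis and acute myocardial infarction (MI) alter gene expression in the endothelium of the bone marrow, where blood cells are made. RNA came from 3 mice in each of 4 groups, 1 library per mouse, and all mice were 20 weeks old. Controls were naive C57BL/6J mice. Mice with hypertension were C57BL/6J and received the pressor peptide angiotensin II by infusion for 8 weeks, and mice with MI were C57BL/6J sampled at day 2 by the labels, whereas the text of the study gives day 4. Mice with atherosclerosis carried Apoe(tm1Unc), a knockout allele of the gene for apolipoprotein E (*Apoe*-/-), in every cell and ate a western diet for 10 weeks, so that genotype and diet cannot be told apart in this group and neither was present in the controls. All groups were compared with the same 3 controls, and p-values measure the spread between mice.

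Liver X receptors bind oxysterols, the oxidized forms of cholesterol, and sit on DNA together with retinoid X receptors. When cholesterol accumulates they switch on genes that move it out of the cell, that limit its uptake and that remodel fatty acids. The pathway is best known in macrophages and liver, and endothelial cells use the same exporters.

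The start regions of *Abca1* and *Srebf1* are shown because they hold the sequence pattern through which the receptors are known to act on these genes, a pair of hexamers related to AGGTCA with 4 bases between them. Promoter windows of 250 bases before to 50 bases after a gene's start were taken from RefSeq on GRCm38.p6, and 6 of the 7 genes were matched, with 9 windows among 32851 of all genes. *Abcg1* was not matched. The 250 bases before the start are printed 5′ to 3′ along the gene's strand, which is the minus strand for both, with capitals for the reverse complement of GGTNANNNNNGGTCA, a pattern that was written from the known elements of these 2 genes.
Abca1, chr4:53159896-53160145: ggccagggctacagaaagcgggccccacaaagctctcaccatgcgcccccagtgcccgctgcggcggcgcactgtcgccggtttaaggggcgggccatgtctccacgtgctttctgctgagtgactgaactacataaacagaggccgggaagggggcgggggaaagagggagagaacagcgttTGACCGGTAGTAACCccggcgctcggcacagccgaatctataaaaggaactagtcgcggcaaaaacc
Srebf1, chr11:60210472-60210721: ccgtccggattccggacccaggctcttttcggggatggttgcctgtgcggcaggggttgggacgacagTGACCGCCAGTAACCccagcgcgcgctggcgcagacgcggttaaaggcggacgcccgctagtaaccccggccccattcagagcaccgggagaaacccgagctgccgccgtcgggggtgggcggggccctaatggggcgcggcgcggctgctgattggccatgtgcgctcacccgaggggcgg
On the opposite strand the matches read as follows.
Abca1, chr4:53159948-53159962: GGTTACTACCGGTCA
Srebf1, chr11:60210639-60210653: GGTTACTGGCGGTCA

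The *Abca1* match lay 53 to 67 bases before the start of the gene and the *Srebf1* match 168 to 182 bases before 1 of its 3 annotated starts. Searched on both strands, this pattern was found in 68 of the 32851 windows (0.207%), and none of the other 7 windows of the 6 matched genes held it. The stricter pattern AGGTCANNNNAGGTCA was found in 5 windows (0.0152%) and in no window of these genes. *Abca1* also held the E-box CACGTG, 142 to 147 bases before its start, which 7.15% of all windows hold. The Sp1 motif GGGCGG was present in windows of *Abca1*, *Mylip*, *Lpcat3* and *Srebf1* and in 35.7% of all windows, and TATAAA was present in *Abca1* and *Mylip* and in 13.6% of all windows. A match describes letters only, since binding was not measured, and counts per gene do not tell the 3 *Srebf1* starts apart.

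Counts on genes totalled between 17007088 and 25136936 per library, so that 3 counts, taken as the smallest measured amount, amounted to between 0.116 and 0.176 CPM, a floor that covers counting error only. *Apoe* was at 10.6 ± 3.81 CPM (SD, n = 3) in *Apoe*-/- mice and 781 ± 98.4 in controls. The endothelial label was met only in part: the 20 endothelial markers summed to between 187 and 338 CPM, with *Cdh5* between 2.00 and 4.19 and *Pecam1* between 17.2 and 31.8, while the pan-leukocyte gene *Ptprc* was between 463 and 814, neutrophil markers summed to between 34300 and 99600 and erythroid markers to between 11350 and 47480, although TER-119, CD41 and CD45 had been gated out. The most abundant neutrophil marker was *Ngp*, at a mean of 26140 CPM. Among erythroid markers *Car2* led at 10780, ahead of the globin gene *Hbb-bs* at 5325. Atherosclerosis replicate 2 and MI replicate 2 stood apart from the rest. In the first, 173 genes were more than 2-fold above every other library and 201 were below 0.5 times every other, in the second 79 and 210, and in each of the remaining libraries 2 to 24 and 13 to 120. CPM throughout are scaled by edgeR's TMM factors, and in bulk RNA a smaller number of cells of a type and less RNA per cell cannot be told apart.

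Levels can be compared between genes only per length, and on the scale of CPM per kilobase of exon the receptor *Nr1h2* and the enzyme *Lpcat3* were the most abundant of the 7 and *Abca1* the least. Median levels over the 12 libraries were 49.6 CPM per kb for *Nr1h2* (33.9 to 68.7) and 47.7 for *Lpcat3* (34.0 to 54.1). Ranked by mean level, they were above 92.6% and 91.6% of the genes tested. *Mylip* followed with 11.5 CPM per kb (8.66 to 16.2), *Srebf1* with 6.47 (5.06 to 11.5), *Abcg1* with 6.20 (3.06 to 44.6) and *Nr1h3* with 3.83 (1.49 to 5.75). *Abca1* had a median of 0.885 CPM per kb (0.593 to 3.06). Its mean, which the atherosclerosis libraries raised, was above that of 32.9% of the genes tested. The ranges of *Nr1h2* and *Lpcat3* overlapped, and so did those of neighbours in this order from *Mylip* to *Nr1h3*, whereas *Abca1* reached its neighbour's range only in atherosclerosis.

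**Figure D1:**
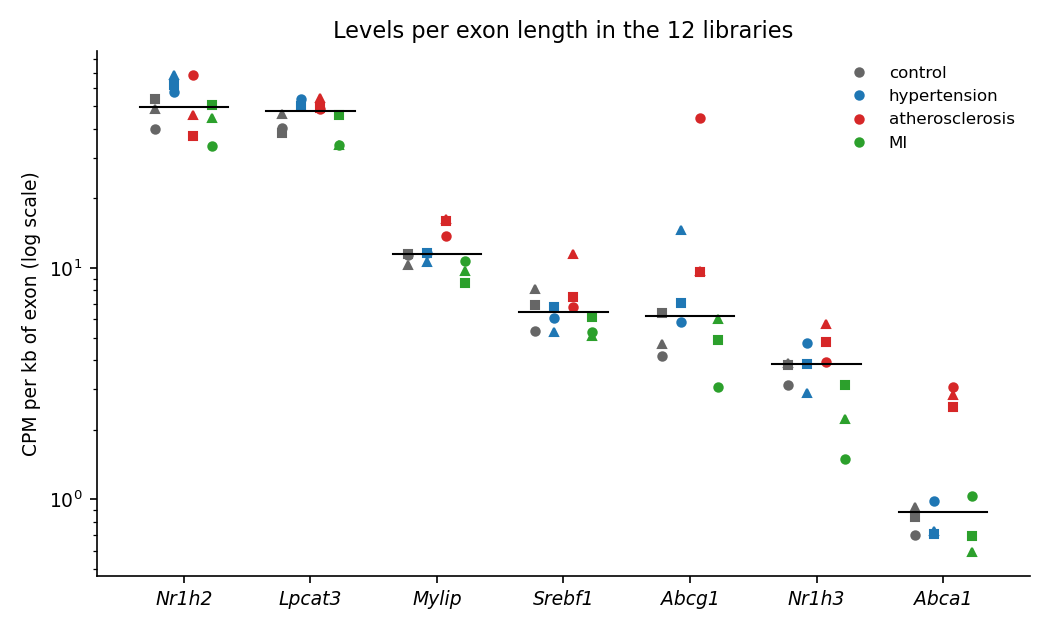
Level of each of the 7 genes in CPM per kilobase of exon (log axis), with 1 point per library colored by group and shaped by replicate number (circle 2, square 3, triangle 4) and a bar at the median of 12 libraries. *Nr1h2* and *Lpcat3* sit highest with medians of 49.6 and 47.7, *Abca1* lowest with 0.885, and 1 atherosclerosis library lies far above the others for *Abcg1*.

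The receptors differed from each other in level and in pattern. *Nr1h3*, on chr2:91184061-91202834 (GRCm38, minus strand), encodes the receptor form that is enriched in macrophages and liver. In the order of replicates 2, 3 and 4, *Nr1h3* was at 7.85, 9.53 and 9.81 CPM in controls, 11.9, 9.72 and 7.26 in hypertension, 9.87, 12.04 and 14.5 in atherosclerosis and 3.75, 7.89 and 5.62 after MI. Each atherosclerosis library exceeded each control, though the nearest pair was 9.87 and 9.81, and the 2 lowest values of all libraries came from MI, whose remaining library overlapped with controls by 7.89 against 7.85. The log2 differences from control were 0.42 ± 0.27 (SE) in atherosclerosis, 0.09 ± 0.27 in hypertension and -0.66 ± 0.27 after MI. A predicted gene within it, *Gm13783*, lies on the same strand and had at most 1 count in a library.

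*Nr1h2*, on chr7:44549616-44553951 (minus strand), encodes the receptor form present in most cells. It was at 133.8, 180.5 and 163.1 CPM in controls and 193.3, 208.5 and 229.4 in hypertension. Atherosclerosis libraries were at 230.3, 125.5 and 153.4 CPM, and MI libraries at 113.6, 169.9 and 150.2. Hypertension was the group that lay wholly above controls, while atherosclerosis held both the highest value of all libraries and one below every control. The log2 differences were 0.40 ± 0.22 (SE) in hypertension, 0.09 ± 0.22 in atherosclerosis and -0.14 ± 0.22 after MI. *Nr1h2* lies 24.85 Mb from *Apoe* on the same chromosome. Per length, the level of *Nr1h3* over that of *Nr1h2* was a log2 ratio of -3.72 ± 0.10 (SD, n = 3) in controls, -4.06 ± 0.48 in hypertension, -3.36 ± 0.66 in atherosclerosis and -4.28 ± 0.25 after MI, so that *Nr1h2* was the major receptor transcript in every library.

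The cholesterol exporters both had their highest mean in atherosclerosis, and they differed in how evenly the 3 mice carried it. *Abca1*, on chr4:53030787-53159895 (minus strand), encodes the transporter that loads cholesterol onto apolipoprotein A1. Its levels were 7.23, 8.72 and 9.62 CPM in controls, 10.2, 7.36 and 7.56 in hypertension, 31.7, 26.0 and 29.4 in atherosclerosis and 10.7, 7.20 and 6.14 after MI. The lowest atherosclerosis library was more than 2-fold above the highest of the other 9 libraries, and those 9 overlapped between groups. The log2 difference from control was 1.77 ± 0.22 (SE) in atherosclerosis, -0.03 ± 0.22 in hypertension and -0.09 ± 0.22 after MI. Compared directly between disease groups, *Abca1* lay 1.79 higher in atherosclerosis than in hypertension and 1.86 higher than after MI on the log2 scale.

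*Abcg1*, on chr17:31057675-31117988 (plus strand), encodes the transporter that passes cholesterol to high-density lipoprotein. Controls were at 30.3, 46.5 and 34.1 CPM, hypertension libraries at 42.9, 51.3 and 106.2, atherosclerosis libraries at 325.3, 70.1 and 71.0 and MI libraries at 22.4, 35.7 and 44.0. All atherosclerosis libraries were above the controls, but replicate 2, one of the libraries that stood apart, was far above the other 2, and 1 hypertension library was above those 2 as well. The log2 difference was 2.07 ± 0.55 (SE) in atherosclerosis, and 0.94 ± 0.34 without replicate 2. It was 0.85 ± 0.53 in hypertension, 0.35 ± 0.55 without hypertension replicate 4, and -0.12 ± 0.53 after MI. Within groups *Abcg1* had the widest spread of the 7 genes, an SD of 0.78 on the log2 scale against 0.12 to 0.36 for the others, so its group order of atherosclerosis, hypertension, control and MI had overlapping neighbours at each step.

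**Figure D2:**
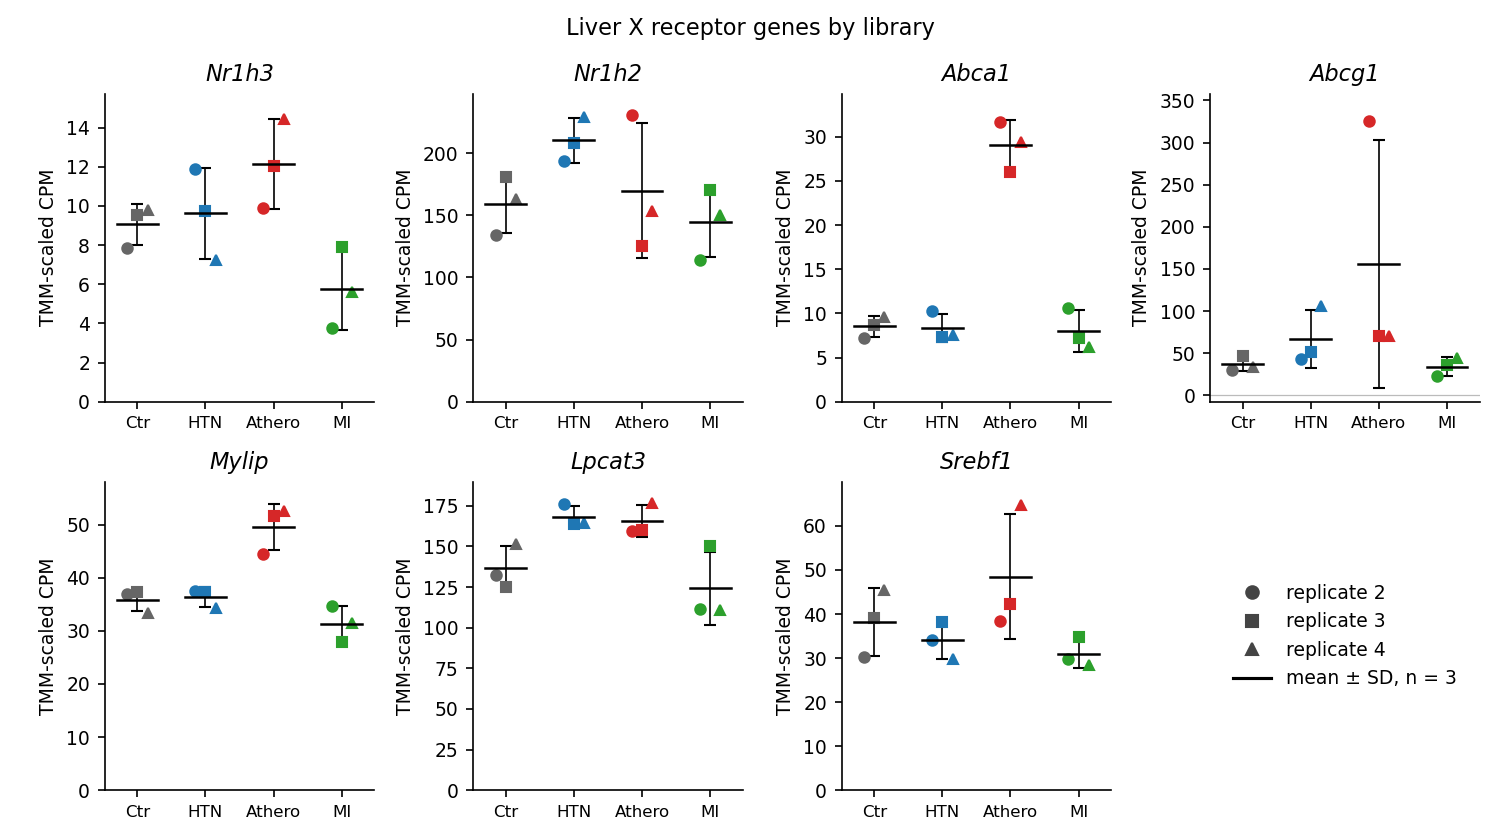
TMM-scaled CPM of each of the 7 genes in the 12 libraries, by group (Ctr control, HTN hypertension, Athero atherosclerosis, MI), with 1 symbol per library shaped by replicate number and a horizontal bar with whiskers for the mean ± SD of 3 mice. *Abca1* in atherosclerosis, at 26.0 to 31.7, is apart from every other library, *Mylip* in atherosclerosis sits at 44.5 to 52.5, and the *Abcg1* mean in atherosclerosis is carried by 1 library at 325.3.

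Among the target genes outside efflux, *Mylip* showed a small and even difference. *Mylip*, on chr13:45389742-45412022 (plus strand), encodes a ubiquitin ligase that limits cholesterol uptake. It was at 36.9, 37.3 and 33.4 CPM in controls, 37.5, 37.4 and 34.3 in hypertension, 44.5, 51.7 and 52.5 in atherosclerosis and 34.7, 28.0 and 31.5 after MI. As with *Abca1*, all 3 atherosclerosis libraries were above the other 9, and hypertension libraries lay almost on the control values. The log2 differences were 0.47 ± 0.13 (SE) in atherosclerosis, 0.02 ± 0.13 in hypertension and -0.19 ± 0.13 after MI.

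*Lpcat3*, on chr6:124663027-124704418 (plus strand), encodes the enzyme that inserts polyunsaturated fatty acids into membrane phospholipids. It was at 132.5, 125.2 and 151.7 CPM in controls and 111.5, 150.3 and 111.2 after MI. Hypertension libraries were at 176.0, 163.9 and 164.6 CPM and atherosclerosis libraries at 159.8, 160.2 and 176.9. Both of these groups were above all controls and overlapped with each other. The log2 differences were 0.30 ± 0.15 (SE) in hypertension, 0.28 ± 0.15 in atherosclerosis and -0.13 ± 0.15 after MI. *Emg1*, which had between 2706 and 4711 counts, overlaps *Lpcat3* on the opposite strand, and since the strand setting of the counting was not stated, reads of the overlap cannot be told apart.

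*Srebf1*, on chr11:60199089-60222581 (minus strand), encodes the transcription factor that turns on fatty acid synthesis. It was at 30.2, 39.0 and 45.5 CPM in controls, 34.2, 38.1 and 29.7 in hypertension, 38.4, 42.3 and 64.8 in atherosclerosis and 29.9, 34.7 and 28.5 after MI. Every disease group overlapped with controls, and 1 atherosclerosis library, replicate 4, was above all others. The log2 differences were 0.34 ± 0.21 (SE) in atherosclerosis, -0.17 ± 0.21 in hypertension and -0.30 ± 0.21 after MI. *Rai1*, with between 297 and 481 counts, overlaps it on the opposite strand.

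**Figure D3:**
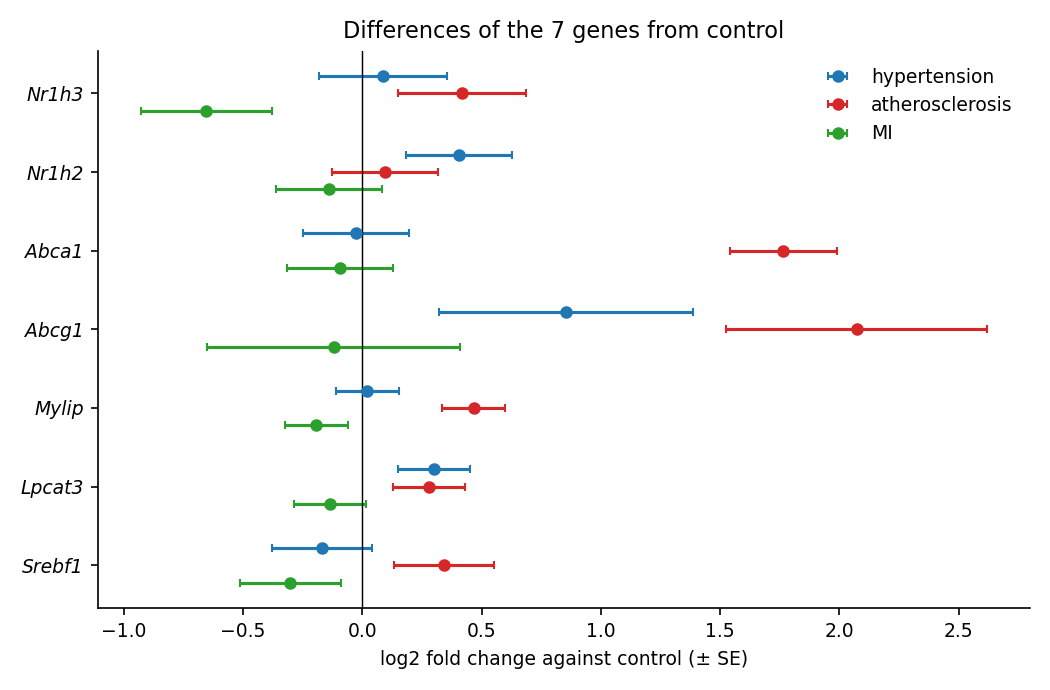
Log2 difference of each of the 7 genes from controls in hypertension, atherosclerosis and MI, with bars for the standard error of the edgeR fit and a line at 0. All atherosclerosis points are above 0, from 0.09 for *Nr1h2* to 2.07 for *Abcg1*, and all MI points are below 0, from -0.66 for *Nr1h3* to -0.09 for *Abca1*.

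Counted over the 7 genes, atherosclerosis had 7 positive log2 differences with a median of 0.42, MI had 7 negative ones with a median of -0.14, and hypertension had 5 positive and 2 negative ones with a median of 0.09. These tallies depended on single libraries. Without atherosclerosis replicate 2 *Nr1h2* was at -0.18 in atherosclerosis, and without control replicate 2 at -0.02. After MI, *Nr1h2* was at 0.01 and *Abcg1* at 0.11 without MI replicate 2, and *Abcg1* was also positive, at 0.07, with control replicate 3 left out. *Abca1* took values of 0.06 and 0.01 when MI replicate 4 or control replicate 4 was dropped. In hypertension, *Nr1h3*, *Abca1* and *Mylip* each took the opposite sign in 3 leave-1-out fits or fewer, at values between -0.09 and 0.08. Over all 15999 genes tested the medians were 0.01, 0.00 and -0.01 in the same order, with 51.9%, 50% and 48.1% of genes positive. In atherosclerosis the 3 libraries of 5 of the 7 genes lay above the 3 controls, all but *Nr1h2* and *Srebf1*, against 5.06% of all genes above and 4.45% below. In hypertension 2 of the 7 lay above, *Nr1h2* and *Lpcat3*, against 9.02% of all genes above and 7.81% below. After MI none of the 7 lay apart from controls, where 4.27% of all genes lay above and 4.59% below. At an adjusted p under 0.05 (Benjamini-Hochberg) in edgeR's quasi-likelihood test, 23 genes (0.144%) passed in atherosclerosis, *Abca1* the one among the 7, and 0 genes (0%) after MI and 0 genes (0%) in hypertension. The *Abca1* call was lost without control replicate 2 and without control replicate 3, where its log2 difference was 1.66 and 1.78, and with a covariate for macrophage markers, and without the low-count filter *Abcg1* was also called in atherosclerosis and in hypertension. Because the 7 genes were selected on these comparisons, their counts carry no evidence of their own.

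At an unadjusted p under 0.05 the quasi-likelihood test counted 955 genes in atherosclerosis, 594 in hypertension and 448 after MI. DESeq2 and edgeR's likelihood-ratio test each gave 0 genes in hypertension and 1 after MI at an adjusted p under 0.05. Between disease groups, 10 genes (0.0625%) passed for atherosclerosis minus hypertension, 43 (0.269%) for atherosclerosis minus MI and 0 (0%) for MI minus hypertension.

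Other genes of the pathway were followed through 6 lists with 109 genes, of which 89 were tested. In atherosclerosis 4 of the 89 (4.49%) passed the test, against 0.144% of all genes tested. All of them were other target genes of the receptors: *Cd5l*, *Scd1* and *Apoc4* rose and *Apoe*, the knocked-out gene, fell. In hypertension and after MI 0 of the 89 passed (edgeR quasi-likelihood test, Benjamini-Hochberg adjusted). An unadjusted p under 0.05 was found for 4 of the 89 in hypertension, 7 after MI and 15 in atherosclerosis. Over all 15999 genes tested these counts were 594, 448 and 955. The median log2 difference of the 89 genes was 0.09 in atherosclerosis, -0.02 in hypertension and -0.03 after MI. The lists were written with results of these data known, so their directions are not independent evidence.

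*Cd5l*, which encodes a secreted protein of tissue macrophages, was at 11.6, 8.12 and 15.6 CPM in controls and 43.2, 71.5 and 49.8 in atherosclerosis. The groups did not overlap, and the log2 difference was 2.22 ± 0.32 (SE), with an adjusted p of 0.019 (edgeR quasi-likelihood, Benjamini-Hochberg). *Scd1*, which encodes the desaturase that makes monounsaturated fatty acids, was at 18.1, 17.5 and 20.6 CPM in controls and 58.6, 35.2 and 32.6 in atherosclerosis. It too was apart from controls, with a log2 difference of 1.17 ± 0.20 (SE) and an adjusted p of 0.048 from the same test. Over the alternatives run, *Cd5l* stayed past the threshold in 10 of 16 and *Scd1* in 8 of 16, with adjusted p values of up to 0.999 for both. Both calls were lost, among others, without control replicate 2, without control replicate 3 and without atherosclerosis replicate 3, where the adjusted p values were 0.129, 0.149 and 0.067 for *Cd5l* and 0.211, 0.295 and 0.067 for *Scd1*, which was also lost without control replicate 4 (0.157).

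*Apoc4*, an apolipoprotein gene 14.6 kb from *Apoe*, had 2, 0 and 0 counts in controls and 24, 29 and 11 in atherosclerosis. This corresponds to a ratio of 33.6 with a 95% exact counting interval of 8.93 to 283. The interval pools the counts of each group and covers counting error only, not the spread between mice. The adjusted p was 0.034 (edgeR quasi-likelihood, Benjamini-Hochberg). The call was kept in 7 of 15 alternatives and lost without any 1 of the 3 controls (adjusted p of 0.065, 0.227 and 0.235 without replicates 2, 3 and 4) and without atherosclerosis replicate 3 (0.108), in a range of 1.85e-06 to 0.999. The other groups had 1 to 5 counts per library. *Apoe* itself, also a target of the receptors, fell by 6.20 on the log2 scale, with an adjusted p of 6.1e-05 in the same quasi-likelihood test, and passed in 16 of 16 alternatives.

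The list of other target genes, these 4 included, mostly had positive differences in atherosclerosis. Of the 17 tested, 15 were above 0, with a median log2 difference of 0.38, and 7 were apart from controls on the upper side, where the background is the 5.06% of all genes given above. *Pltp*, the phospholipid transfer protein, had a log2 difference of 1.22 (adjusted p = 0.292, edgeR quasi-likelihood), and the desaturase gene *Scd2* one of 1.02 (adjusted p = 0.384). The apolipoprotein gene *Apoc1* was at 1.40 ± 0.96 (SE), carried by atherosclerosis replicate 3 at 3.47 CPM against 0.222 and 0.611 in the other 2 libraries, the lipoprotein lipase gene *Lpl* at 0.38 and the fatty acid synthase gene *Fasn* at 0.04. In hypertension 8 of the 17 were positive with a median of -0.04, from -0.70 for *Apoc1* to 0.80 for *Apoc4*. After MI 7 were positive with a median of -0.13, from -0.74 for *Scd1* to 2.55 for *Apoc4*, which had 3, 4 and 5 counts. *Abcg5*, *Abcg8*, *Apoc2*, *Mlxipl* and *Cyp7a1* had too few counts to be tested.

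Partners and coregulators of the receptors gave no call in any comparison. Their 17 tested genes had medians of 0.09 in atherosclerosis, 0.10 in hypertension and -0.04 after MI (smallest adjusted p 0.86, edgeR quasi-likelihood). The retinoid X receptor genes *Rxra* and *Rxrb* had log2 differences of 0.14 and 0.07 in atherosclerosis, the corepressor *Ncor1* 0.05 and the coactivator *Ncoa1* -0.03. The highest and lowest values were 0.75 for *Ncoa2* and -0.09 for *Hdac3* in atherosclerosis, 0.50 for *Med1* and -0.16 for *Ep300* in hypertension, and 0.10 for *Ppard* and -0.29 for *Pparg* after MI. The *Ncoa2* value was carried by atherosclerosis replicate 2, at 181 CPM, while the other 2 libraries, at 44.8 and 40.5, lay below every control (45.3 to 57.4). Enzymes that make or clear oxysterols were mostly too low, with 3 of 9 tested. *Cyp27a1*, the sterol 27-hydroxylase, was at -0.10 in atherosclerosis, -0.12 in hypertension and -0.45 after MI. *Cyp11a1* was at 0.59 in atherosclerosis and 0.01 in hypertension, and no gene of this list passed the test. *Ch25h*, the cholesterol 25-hydroxylase gene, had at most 3 counts in a library.

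Other genes of efflux and lysosomal cholesterol handling were divided in direction. Of the 20 tested, 11 were positive in atherosclerosis, 5 in hypertension and 9 after MI, with medians of 0.01, -0.07 and -0.05, and none passed the test. In atherosclerosis the log2 difference was -0.06 for the transporter gene *Abca7*, -0.25 for the HDL receptor gene *Scarb1*, 0.01 for *Npc1*, -0.23 for *Npc2* and 0.01 for the cholesterol esterifying *Soat1*. The extremes were *Ces1d* at -1.60 (adjusted p = 0.17, edgeR quasi-likelihood) and *Soat2* at 0.61 in atherosclerosis, *Ces1d* at -0.60 and *Lcat* at 0.54 in hypertension, and *Lcat* at -0.62 and *Soat2* at 0.47 after MI.

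Genes of sterol sensing and lipoprotein uptake had medians of 0.02 in atherosclerosis, -0.02 in hypertension and 0.10 after MI over the 15 tested, and none passed the test. *Srebf2*, which drives cholesterol synthesis, was at 36.2, 44.3 and 39.5 CPM in controls and 21.7, 28.5 and 32.2 in atherosclerosis. All 3 atherosclerosis libraries were below the controls, and the log2 difference was -0.54 ± 0.16 (SE; adjusted p = 0.445, edgeR quasi-likelihood). *Vldlr* was at 1.34 ± 0.48 in atherosclerosis and 1.11 ± 0.48 after MI at means under 1.5 CPM, *Mbtps1* was at -0.22 after MI, and *Insig2* and *Mbtps2* marked the ends in hypertension at 0.64 and -0.52. Hypertension libraries had 52.7, 59.1 and 111 CPM of *Insig2*, against 42.8 to 53.1 in controls.

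Relatives of the 7 genes in the same families gave no call. None of the 17 tested passed in any comparison, with medians of 0.24 in atherosclerosis, 0.18 in hypertension and -0.05 after MI. The acyltransferase genes *Lpcat1* and *Lpcat2* had log2 differences of 0.50 and -0.25 in atherosclerosis. The ends of the list were *Abca4* at 0.97 and *Abca6* at -0.53 in atherosclerosis, *Abca4* at 0.77 and *Abca13* at -0.31 in hypertension, and *Abca6* at 2.39 ± 0.94 (SE) and *Abcg3* at -0.66 after MI. The *Abca6* value was carried by MI replicate 2, since MI libraries were at 27.1, 0.953 and 1.85 CPM and controls at 1.63, 2.00 and 2.06.

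**Figure D4:**
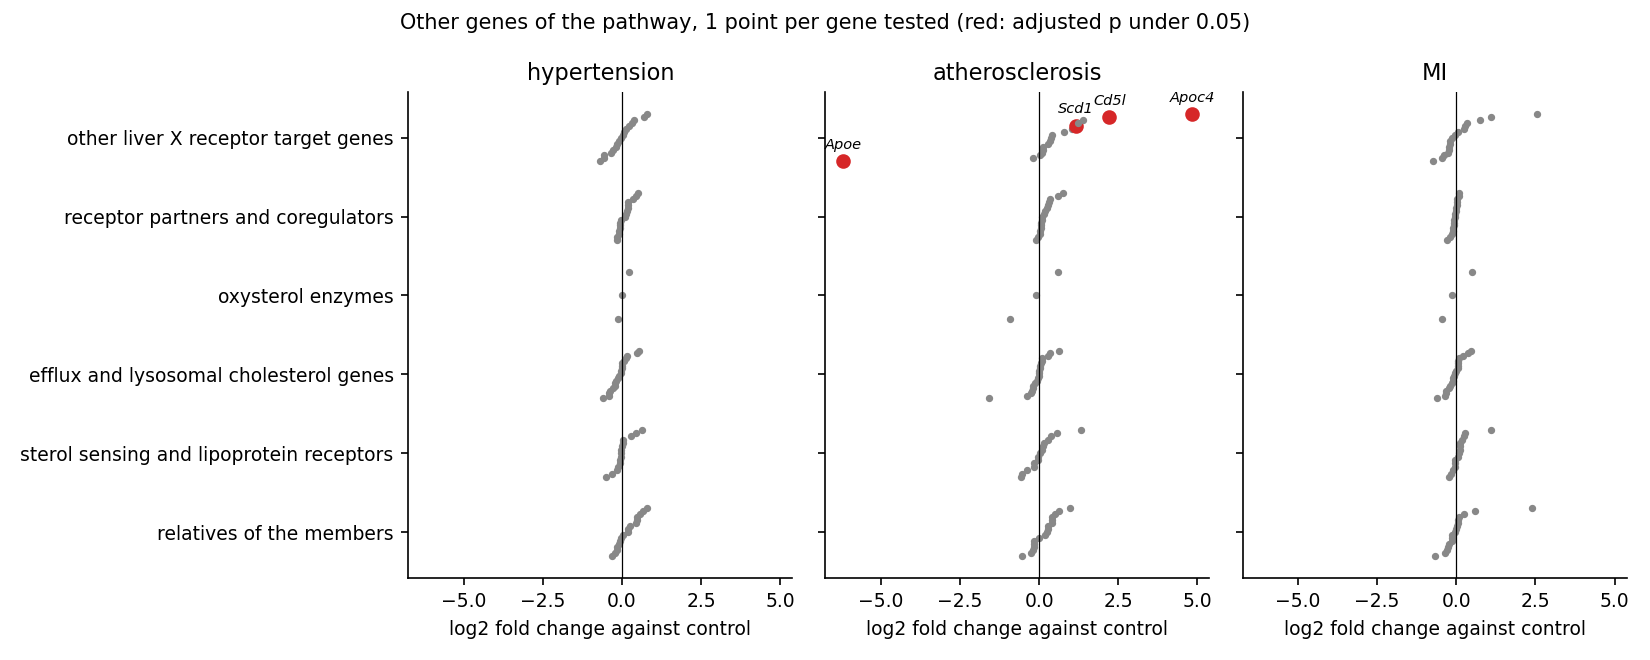
Log2 difference from controls of the 89 tested genes in 6 lists of the pathway, 1 panel per disease group and 1 point per gene, spread vertically within a list by rank. Large red points mark genes with an adjusted p under 0.05, *Cd5l* at 2.22, *Scd1* at 1.17, *Apoc4* at 4.83 and *Apoe* at -6.20, which are all in atherosclerosis.

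Marker genes of other marrow cells moved with some of these results. The 16 macrophage markers summed to between 1896 and 2254 CPM in atherosclerosis and between 1304 and 1616 in controls, without overlap (p = 0.1 in an exact two-sided permutation test, below which 3 against 3 libraries cannot go). Gene by gene, 16 of the 16 had a higher mean and 10 lay above all controls. *Slc40a1*, *Vcam1* and *C1qc* were the most abundant, at means of 812, 214 and 192 CPM, the defining markers *Adgre1* and *C1qa* were at 41.7 to 103 and 27.3 to 62.7, and *Cd5l* and *Mertk* were also on the list of target genes. In hypertension the macrophage sum was between 1595 and 2154 and after MI between 1285 and 1721. A higher mean than in controls was found for 13 of the 16 in hypertension and 12 after MI, and 4 and 2 lay above all controls. With the macrophage sum as a covariate, the atherosclerosis difference was 1.34 ± 0.31 (SE) for *Abca1*, 0.60 ± 0.20 for *Mylip*, 0.07 ± 0.39 for *Nr1h3* and 0.02 ± 0.21 for *Lpcat3*. No gene but *Apoe* passed the test in that fit, and *Cd5l*, which is itself part of the sum, was at 1.64 and *Scd1* at 0.76. Because the sum did not overlap between atherosclerosis and controls, the fit can only partly separate it from the group. Standard errors grew with it, for *Abca1* from 0.22 to 0.31, so a lost call does not show what the difference came from.

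Plasmacytoid dendritic cell markers (10 genes) were also apart, at 652 to 691 CPM in atherosclerosis and 434 to 472 in controls. So were stem and progenitor markers (12 genes), at 370 to 388 and 305 to 323 (exact two-sided permutation test, p = 0.1 for both). Gene by gene, 9 of the 10 and 11 of the 12 had a higher mean, but only 4 in each list lay above all controls. Endothelial markers overlapped with controls in each disease group (exact two-sided permutation p of 0.7 in atherosclerosis, 0.5 in hypertension and 1 after MI). So did the atherosclerosis sums of the other lists, with exact permutation p values of 0.3 for neutrophil markers, 0.8 for erythroid, 0.7 for monocyte, 0.9 for B cell, 0.3 for T and NK cell, 0.9 for megakaryocyte, 0.7 for eosinophil, basophil and mast cell and 0.7 for mesenchymal stromal markers. Single genes of these lists could still share a direction. A higher mean in atherosclerosis was found for 14 of the 14 erythroid, 9 of the 10 megakaryocyte and 0 of the 13 neutrophil markers. In hypertension neutrophil markers (37520 to 54680 CPM), monocyte markers (1310 to 1469) and plasmacytoid dendritic cell markers (414 to 433) lay below all controls, the last by 432.6 against 433.8 at the nearest pair. After MI B cell markers (252 to 551) and plasmacytoid dendritic cell markers (237 to 404) did (exact two-sided permutation test, p = 0.1 for each). Over all lists and groups 36 sums were compared without adjustment, so some could lie apart by chance. The part of these cells in the differences of the 7 genes was not tested beyond the covariate fits.

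Over the 12 libraries the 7 genes followed different marker sums, described here as Pearson's r of log2 CPM among 84 such pairs, with no test, since libraries share groups and depth. *Lpcat3* and *Abca1* followed macrophage markers with r of 0.78 and 0.71, and with 0.65 and 0.59 after the group means were removed. With endothelial markers, *Lpcat3* had r of 0.32 and *Srebf1* 0.63 over all libraries. Within groups these were 0.75 for *Lpcat3* and 0.63 for *Srebf1*. The other within-group values were 0.50 for *Nr1h3*, 0.07 for *Abca1*, -0.11 for *Nr1h2*, -0.19 for *Mylip* and -0.40 for *Abcg1*. For *Abca1*, plasmacytoid dendritic cell markers gave 0.72, but -0.65 within groups, and monocyte markers 0.05, but 0.69 within groups. *Nr1h2* and *Abcg1* ran against erythroid markers, with r of -0.76 and -0.57 over all libraries and -0.94 and -0.93 within groups, and against neutrophil markers, with -0.86 and -0.84 and within groups -0.88 and -0.85. Atherosclerosis replicate 2, in which both genes had their highest value, also had the lowest erythroid and neutrophil sums of all libraries, 11350 and 34300 CPM, and the highest B cell sum, 1269. *Nr1h3* followed plasmacytoid dendritic cell markers most closely, with r of 0.84 and 0.69 within groups.

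**Figure D5:**
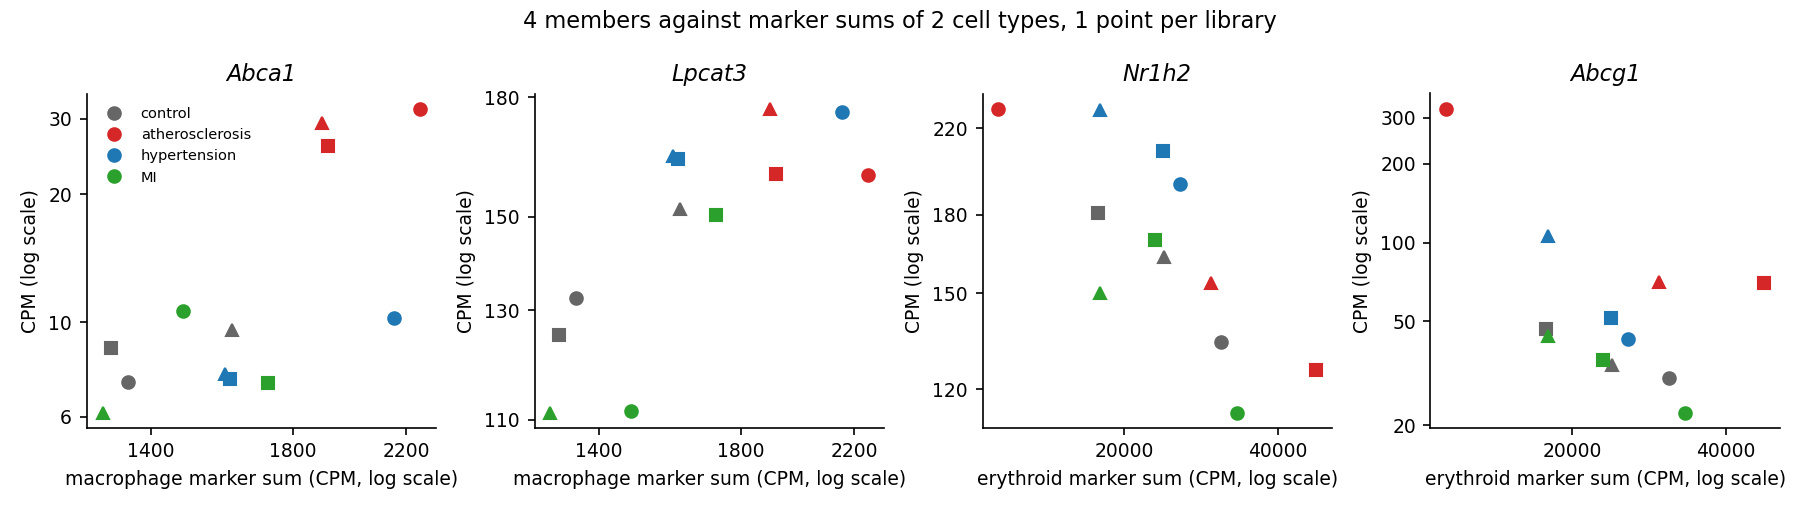
CPM of *Abca1*, *Lpcat3*, *Nr1h2* and *Abcg1* against the summed CPM of macrophage or erythroid markers in the same library, both axes on a log scale, with 1 point per library colored by group and shaped by replicate number. The 3 atherosclerosis points for *Abca1* lie above a hypertension library with a macrophage sum of 2154. *Nr1h2* and *Abcg1* are highest at the lowest erythroid sum, 11350. At the highest sum, 47480, *Nr1h2* is at 125.5 CPM and *Abcg1* at 70.1, the latter above all controls.

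Among themselves the 7 genes fell into more than one pattern. Over the 12 libraries *Abca1* and *Mylip* had the highest correlation (r = 0.87), which was 0.18 within groups, so that it was mostly a difference between groups. *Nr1h3* and *Lpcat3* (0.81, within groups 0.71) and *Nr1h3* and *Srebf1* (0.76, within groups 0.64) varied together from mouse to mouse as well. *Nr1h2* and *Abcg1* reached 0.64 over all libraries and 0.87 within groups, whereas *Nr1h2* and *Mylip* ran in opposite directions within groups (r = -0.78).

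The tested genes most like each of the 7 by Pearson's r of log2 CPM over 12 libraries were *Herc6* (0.94), *Usp25* (0.93) and *Gbp2* (0.93) for *Nr1h3*, and *Plpbp* (0.99), *Kansl2* (0.97) and *Tram1* (0.97) for *Nr1h2*. For *Abca1*, *Tmem26* (0.92) and *Parp9* (0.92) are given, and their r within groups was 0.54 and 0.32. For *Abcg1* they were *Slc35d1* (0.96), *Pml* (0.95) and *Dennd1a* (0.95). For *Mylip* they were *H2-Q7* (0.91), *Dmpk* (0.91) and *Cyp11a1* (0.90), with r within groups of 0.31, 0.49 and 0.75. *Lpcat3* was closest to *Nadk2* (0.95), *Cul4a* (0.95) and the transporter gene *Abcg4* (0.95), and *Srebf1* to *Gm6377* (0.95), *Cmpk2* (0.94) and *Adar* (0.93). For the genes given with *Nr1h3*, *Nr1h2*, *Abcg1*, *Lpcat3* and *Srebf1*, r within groups was between 0.84 and 0.98.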

How the data were processed

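Polyadenylated RNA of cells sorted as TER-119- CD41- CD45- CD31hi SCA-1+ from 12 mice was sequenced as strand-specific libraries. The authors aligned the reads with STAR 2.7.3a to GRCm38.p6, per the processing notes and methods, and deposited raw counts per Ensembl gene (release 98), without normalization; which strand column was taken is not given in the sources used here. Reads in places shared by several genes are left out by such counting, which can lower the counts of genes with close copies. Total counts were between 17007088 and 25136936 per library. Of 55421 genes, 55240 had a symbol and position in the annotation used here.

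Low counts were filtered by filterByExpr of edgeR 4.0.16 (R 4.3.3), leaving 15999 genes with at least 99.9% of the counts, and libraries were scaled by TMM. One model with a coefficient per group was fitted to all 12 libraries (8 residual degrees of freedom, common dispersion 0.0634), and groups were compared by the two-sided quasi-likelihood test, with p-values adjusted by Benjamini-Hochberg over all genes tested. The standard error is the log2 difference divided by the square root of F. CPM per kb used the merged exon length. Marker sums were compared by exact permutation tests. Correlations used log2 (CPM + 0.5). The steps were tested on simulated data.

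The 7 genes, the 6 pathway lists and the marker lists were chosen with earlier results of these data known. Genes named are the 7, *Apoe*, a fixed set of 22 pathway genes, list genes past an adjusted p of 0.05, the highest and lowest tested gene of each list in each comparison, and the 3 genes most like each of the 7, of which some are not reported here. Genes too low to be tested, *Mertk*, the most abundant and defining markers and genes that overlap the 7 were named beyond this rule after their values were seen. Alternatives were the likelihood-ratio test, DESeq2 1.42.0, RLE scaling, other filters on low counts, an adjusted p under 0.1, a replicate block, a fit of only the 2 groups compared, hemoglobin and immunoglobulin genes left out, macrophage or monocyte marker sums as a covariate, the length of the longest transcript, and each library left out in turn.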

Additional observations from a re-analysis of the deposited data

Results flagged for a closer look

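Of the pathway genes outside the 7, 3 differed between disease groups when these were compared directly. *Apoe*, the knocked-out gene, was lower in atherosclerosis than in hypertension by a log2 difference of -6.02 (adjusted p = 7.9e-05, edgeR quasi-likelihood, Benjamini-Hochberg over 15999 genes) and than after MI by -6.46 (adjusted p = 4.3e-05, the same test). *Scd1* was 1.91 higher on the log2 scale in atherosclerosis than after MI (adjusted p = 0.0031, edgeR quasi-likelihood test), with MI libraries at 10.2, 12.9 and 10.5 CPM and atherosclerosis libraries at 58.6, 35.2 and 32.6. *Pltp* was 1.68 higher in atherosclerosis than after MI (adjusted p = 0.043, edgeR quasi-likelihood test), with MI libraries at 8.06, 6.19 and 6.60 CPM and atherosclerosis libraries at 13.9, 19.0 and 34.0. *Scd1* and *Pltp* libraries did not overlap between these groups.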

How the results depend on the processing

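The count of genes past the threshold in atherosclerosis, 23 over all genes and 4 in the pathway lists, moved to 81 with the likelihood-ratio test and to 81 with DESeq2, to 432 and 8 without a low-count filter, to 4 and 1 with only the 2 groups compared, to 1 and 1 with the macrophage sum as a covariate and to 13 and 2 with the monocyte sum. It was between 2 and 34, and between 1 and 4 in the lists, when 1 mouse was left out: 3 without control replicate 2, 2 without control replicate 3, 11 without control replicate 4 and 6 without atherosclerosis replicate 3. With a replicate block it was 7 and 1. Deviations from group means correlated with r of -0.34 to 0.34 between same-numbered libraries of different groups and of -0.35 to 0.47 between differently numbered ones. Whether the replicate numbers pair the mice cannot be told from so few libraries. The count of 0 in hypertension became 170 without a filter, and that of 0 after MI became 130 without a filter (1 in the lists) and 1 with the likelihood-ratio test, with DESeq2 and with only the 2 groups compared. The cause of these moves was not tested.

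Under alternatives, 305 log2 differences of the 7 genes moved by less than the spread between mice and 10 by more. The called *Abca1* difference kept its sign throughout, while small differences of *Nr1h2* in atherosclerosis, of *Nr1h2*, *Abca1* and *Abcg1* after MI and of *Nr1h3*, *Abca1*, *Mylip* and *Srebf1* in hypertension turned in some fits. Beyond the values in the report, with the macrophage sum as a covariate *Abca1* was at -0.30 and *Lpcat3* at 0.14 in hypertension, with the monocyte sum *Abca1* was at 0.28 in hypertension, and after MI *Abca1* was at -0.36 without replicate 2 and *Lpcat3* at -0.29 without replicate 3. With the longest transcript in place of merged exons, the levels were 83.3 CPM per kb for *Nr1h2*, 65.6 for *Lpcat3* and 8.47 for *Srebf1*. With 3 mice per group, and few endothelial against blood cell transcripts, small differences could not be resolved, and no value can be given to 1 cell type.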
